A study of Homo sapiens with 8 samples.

Results

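The sites described here were peaks of TEAD1 that carried TEAD4, had no peak of HA-tagged YAP5SA and had a lower TEAD1 score. They were selected on measured values, as peaks of the TEAD1 list with a score below 628.89 that shared at least 1 bp with a TEAD4 peak and none with an HA-YAP5SA peak. The limit sits at percentile 90 of the TEAD1 scores. The selection gave 7858 of 38186 TEAD1 peaks (20.6%). The TEAD1 score, the presence of TEAD4 and the absence of HA-YAP5SA therefore define these sites and are no findings about them. The peaks came from chromatin immunoprecipitation and sequencing (ChIP-seq), in which DNA bound by a protein is pulled down with an antibody and sequenced. All 8 libraries of the study were from HuCCT1, an established line grown from a human bile duct carcinoma, with chromatin fixed in formaldehyde and sheared by sonication. Peak lists of 5 libraries were used, from antibodies against TEAD1, TEAD4, YAP, TAZ (the WWTR1 product) and, for YAP5SA, the HA tag. The GFP, IgG and input libraries were not analysed here. Each antibody had 1 library in 1 cell line, so nothing below has a replicate check and no test was made. The titles do not say whether the TEAD1 and TEAD4 libraries came from cells that carried the tagged YAP5SA.

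TEAD1 and TEAD4 are paralogues with a closely related DNA-binding domain, and both recognise the same short DNA element. They are the main DNA-bound partners of YAP and TAZ, the coactivators that the kinases of the Hippo pathway hold in check, and they can also sit on DNA without a coactivator. YAP5SA carries alanines in place of the serines that the LATS kinases phosphorylate, which makes it resistant to that control. A site without an HA-YAP5SA peak is one at which no peak was called in that list, which held 847 peaks, and not one shown to be free of the protein.

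These sites made up the larger part of the TEAD4 list although a minor part of the TEAD1 list. They touched 7893 of the 12188 TEAD4 peaks (64.8%). Over the whole TEAD1 list 30.6% of peaks shared a base with TEAD4, and 2.06% with HA-YAP5SA. The share of TEAD1 peaks that were members was 2.39% at TEAD1 scores of 80 to 100, 23.8% at 200 to 250, 56.6% at 320 to 400 and 83.4% at 500 to 628.89. Below the limit, the remaining peaks were almost all TEAD1 peaks without TEAD4, 26382 in number. Above it, 3047 TEAD1 peaks had TEAD4 and no HA-YAP5SA, and these are called the strong sites below. A further 763 TEAD1 peaks of any score had both TEAD4 and HA-YAP5SA.

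**Figure D1:**
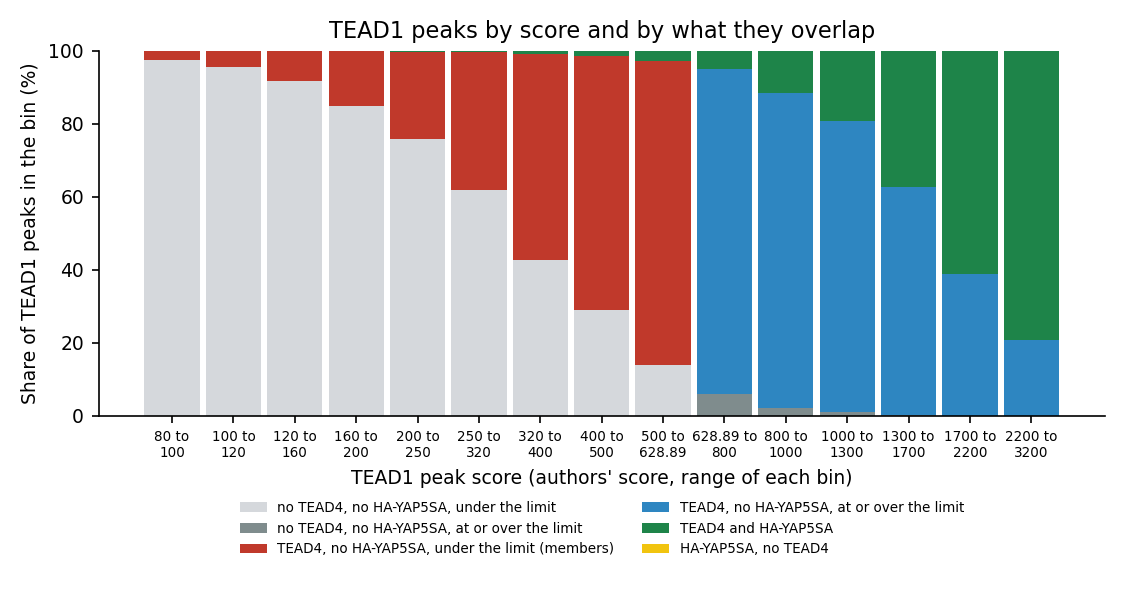
Stacked bars give, for each range of the authors' TEAD1 peak score, the percentage of TEAD1 peaks in each of 6 classes. The members (red) made up 2.39% of peaks at scores of 80 to 100 and 83.4% at 500 to 628.89, and the limit of the rule ends their range.

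The sites are weaker than the strong sites in TEAD1 score by the rule, but most scored above the middle of the TEAD1 list, while their TEAD4 peaks mostly scored below the middle of the TEAD4 list. The member TEAD1 scores ran from 80.03 to 628.86, with a median of 338 (interquartile range 228 to 459), above the median of 177 of the whole TEAD1 list. Of the members, 1138 (14.5%) lay below that list median. The TEAD4 peak at a member had a median score of 131 (101 to 183), against 314 at the strong sites and 537 at the sites with HA-YAP5SA. In the TEAD4 list this placed the median member at percentile 37.3, the median strong site at percentile 80.2 and the median site with HA-YAP5SA at percentile 93.1. At 5239 members (66.7%) the TEAD4 score was below the TEAD4 list median of 162, and at 44 members (0.56%) it was above percentile 90 of the TEAD4 list. Scores are the authors' own values per peak on a scale that is not stated, so they rank peaks within a list and do not measure the amount of protein bound.

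The order of sites by TEAD1 and by TEAD4 was partly shared within this class. Across the 7858 members the rank correlation between the TEAD1 and the TEAD4 score was 0.45, against 0.57 over strong sites and 0.83 over sites with HA-YAP5SA. These are descriptions across peaks of a single pair of libraries. The score limit and the lower end of both lists narrow the range over members, and the classes differ in range. The median TEAD4 score at members was 100 at TEAD1 scores of 80 to 100, 99.8 at 100 to 150, 118 at 200 to 300 and 187 at 500 to 628.89. Below a TEAD1 score of 150 the TEAD4 peaks of members therefore lay near the start of the TEAD4 list at 80.

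**Figure D2:**
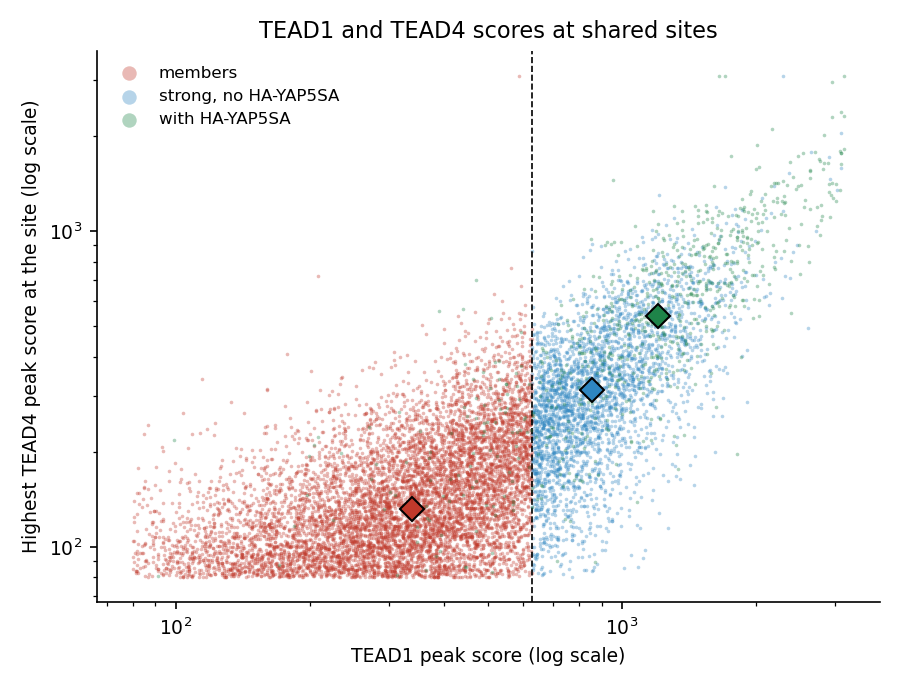
Each point is a TEAD1 peak with TEAD4, placed by its TEAD1 score (x, log scale) and the highest TEAD4 score at it (y, log scale); diamonds mark class medians and the dashed line the score limit of 628.89. Members (red) have medians of 338 and 131, with 1 point at a TEAD4 score of 3100.

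Peaks at the limit did not break from one side to the other. The 5 members just under it had TEAD1 scores of 628.51 to 628.86 and TEAD4 scores of 251, 261, 249, 163 and 175. The 5 strong sites at or just over it had TEAD1 scores of 628.89 to 628.99 and TEAD4 scores of 204, 352, 93.9, 228 and 329. The ranges of TEAD4 score on both sides overlapped. The first of each were chr1:67526274-67527017 below the limit and chr6:45933363-45934108 at it. At the other end of the class, the lowest TEAD1 scores belonged to chr7:150945722-150946052 (TEAD1 score 80.03, TEAD4 score 85.3) and chr8:49777408-49777915 (TEAD1 score 80.12, TEAD4 score 104). Coordinates are hg19, as deposited.

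Where both factors were called, their peaks lay close together, which the rule in part ensures. It required a shared base, which limits the distance between centres and lets a narrower TEAD4 peak often fall inside the TEAD1 peak. The values below are descriptions within that limit. The centres of the TEAD1 and TEAD4 peaks of a member were a median of 42.5 bp apart (20 to 75.5 bp). They lay within 100 bp at 6696 members (85.2%), near the 83.5% of all TEAD1 peaks with TEAD4. Strong sites had a median of 46 bp and sites with HA-YAP5SA one of 44 bp. Within the class the median distance ran from 38 bp at TEAD1 scores of 80 to 100 to 46 bp at 500 to 628.89. By TEAD4 score the order was the reverse, and it was 45.5 bp when TEAD4 scores were 80 to 101 and 39 bp when they were 183 or more. The TEAD4 peak lay wholly inside the TEAD1 peak at 7268 members (92.5%), near the 93% of all TEAD1 peaks with TEAD4. Its median width was 319 bp, 51.3% of the TEAD1 width at the median member, against 62% at the sites with HA-YAP5SA.

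Most members held a single TEAD4 peak, 7820 of 7858, and 38 held 2. A single TEAD4 peak was the usual case in every class, at 11499 of all 11668 TEAD1 peaks with TEAD4. Of the 165 such peaks that held 2, 109 were strong sites. Among those 38, the highest TEAD4 score was at chr5:175842729-175843855, a TEAD1 peak of 1127 bp with a TEAD1 score of 453 and a TEAD4 score of 408. The next were chr1:41951136-41952502 (TEAD4 score 285), chr1:143743166-143744454 (TEAD4 score 260), chr11:13782854-13783291 (TEAD4 score 251) and chr16:86388561-86390258 (TEAD4 score 234). All except the chromosome 11 site, 438 bp wide, were over 1 kb wide. In the reverse case, 9 members shared their TEAD4 peak with another TEAD1 peak, and at 4 of them the TEAD4 peak overlapped the other TEAD1 peak more.

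One of these was the member with the highest TEAD4 score of all, chr3:134044822-134045502 (TEAD1 score 587). Its TEAD4 peak scored 3100, a highest value that 5 peaks of that list share, and was 1715 bp wide. That TEAD4 peak covered 581 bp of the member and 850 bp of the neighbouring TEAD1 peak chr3:134045531-134046380, which scored 1697 and carried HA-YAP5SA. The next members by TEAD4 score each had a TEAD4 peak of under 1 kb. They were chr1:1111609-1112303 (TEAD1 score 564, TEAD4 score 761), chr4:1317394-1318402 (TEAD1 score 209, TEAD4 score 720), chr11:10509527-10510236 (TEAD1 score 595, TEAD4 score 671) and chr10:63984149-63984723 (TEAD1 score 518, TEAD4 score 632). The chromosome 4 site stood apart among them, at percentile 57.5 of the TEAD1 list and percentile 96.8 of the TEAD4 list. The other 5 of the top 10 had TEAD4 scores of 550 to 601 and lay at chr11:46410697-46411686, chr8:101679577-101680170, chr9:130860685-130861561, chr15:40763782-40764583 and chr9:110044953-110045771. Apart from the chromosome 3 site, the nearest HA-YAP5SA centre was 50.6 kb (chr9:130860685-130861561) to 4451.5 kb (the chromosome 8 site) from these members.

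The antibody against YAP gave almost no peaks at these sites. The selection did not use its list of 454 peaks, but it left out sites with HA-YAP5SA, a tagged form of the same protein. The YAP share of members, and its gap from the sites with HA-YAP5SA, are therefore not independent of the rule. YAP overlapped 6 of 7858 members (0.0764%, exact 95% binomial interval 0.028 to 0.166%), beside 0.210% of all TEAD1 peaks. Of the 80 TEAD1 peaks behind that 0.210%, 52 were sites with HA-YAP5SA, which the rule keeps out of the members. The 0.210% is therefore no like background, and the classes without HA-YAP5SA are the closer comparison. The share was 0.23% at the strong sites (7 of 3047, interval 0.0924 to 0.473%) and 6.82% at the sites with HA-YAP5SA (52 of 763, interval 5.13 to 8.84%). Among lower-scoring TEAD1 peaks with neither TEAD4 nor HA-YAP5SA it was 0.0569% (15 of 26382, interval 0.0318 to 0.0938%). The interval of the members overlapped those of the strong sites and of the peaks without TEAD4, and lay below that of the sites with HA-YAP5SA. Intervals here cover counting error over peaks only, and the depth of each library is unknown. TAZ, whose list held 153 peaks, overlapped none of the members, a count that allows at most 0.0382%. It overlapped none of the TEAD1 peaks as a whole (background 0%). Lists as short as those of YAP and TAZ can reach only a small part of the TEAD1 list, whatever the class.

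Of the 6 members with YAP, 4 were unusually wide peaks. They were chr1:121480892-121485515 (4624 bp), chr10:42596615-42600717 (4103 bp), chr2:92295464-92298419 (2956 bp) and chr11:51590092-51591678 (1587 bp), and the YAP peaks on them scored 212, 877, 403 and 145. All of these except the chromosome 11 site were among the 6 widest members. The other members among those 6 were peaks on the scaffolds 7_gl000195_random (3386 bp) and 17_gl000205_random (2655 bp), and chr10:47056513-47058804 (2292 bp). Whether such wide peaks reflect bound TEAD1, TEAD4 or YAP was not tested. Peaks wider than 1500 bp, a width chosen after the values had been seen, were 22 of the members (0.28%) and 0.285% of all TEAD1 peaks. The other 2 members with YAP had the usual width. These were chr1:155436733-155437358 (626 bp, TEAD1 score 521, TEAD4 score 277, YAP score 91.6) and chr11:129731521-129732259 (739 bp, TEAD1 score 611, TEAD4 score 144, YAP score 83.3). Their YAP scores were close to 80.05, the lowest value in the YAP list. Without the wide peaks the YAP share was 0.0255% at members (2 of 7836, interval 0.00309 to 0.0922%), 0.201% at strong sites (6 of 2992, interval 0.0736 to 0.436%) and 6.57% at sites with HA-YAP5SA (49 of 746, interval 4.9 to 8.59%). It was 0.0341% at lower-scoring peaks with neither TEAD4 nor HA-YAP5SA (9 of 26370, interval 0.0156 to 0.0648%) and 0.173% over all TEAD1 peaks (66 of 38077). Of those 66, 49 were the sites with HA-YAP5SA. The interval of the members again overlapped those of the strong sites and of the peaks without TEAD4.

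HA-YAP5SA was absent from these sites by selection, but it could lie beside them. An HA-YAP5SA centre lay within 1 kb of 14 members (0.178%), within 10 kb of 203 (2.58%, interval 2.24 to 2.96%) and within 100 kb of 1070 (13.6%, interval 12.9 to 14.4%). Over all TEAD1 peaks that did not overlap HA-YAP5SA the shares were 1.98% within 10 kb and 11.1% within 100 kb. At strong sites they were 3.1% (interval 2.5 to 3.76%) and 14.7% (interval 13.4 to 16%), and both intervals overlapped those of the members. Nearness to HA-YAP5SA was therefore not particular to the members. Within 1 kb the share was 0.0656% at strong sites (2 of 3047, interval 0.00795 to 0.237%). At lower-scoring TEAD1 peaks with neither TEAD4 nor HA-YAP5SA it was 0.0948% (25 of 26382, interval 0.0613 to 0.14%). Both intervals overlapped that of the members (0.0974 to 0.299%). The median distance was 839.2 kb (interquartile range 259.5 to 2187 kb) for the 7849 members on a chromosome or scaffold with an HA-YAP5SA peak. For strong sites without HA-YAP5SA it was 822.8 kb, and for lower-scoring TEAD1 peaks with neither mark it was 1122 kb. The gap was at most 500 bp at 14 members, and in all 14 the HA-YAP5SA peak lay on another TEAD1 peak. Overlap of HA-YAP5SA with TEAD1 was common in any case, with 787 TEAD1 peaks overlapping a list of 847 HA-YAP5SA peaks. Gaps were not counted over all TEAD1 peaks, so the 14 have no background. The smallest gaps were 192 bp at chr4:84129540-84130386, where the neighbouring TEAD1 peak scored 1609 against 471 for the member, and 196 bp at chr3:134092400-134092971, where it scored 1190 against 91.1. In 1 of the 14, chr2:12173054-12173436, the order was the reverse, and the member scored 533 against 94.4 for the TEAD1 peak under HA-YAP5SA.

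At like TEAD1 score, a larger share of members than of TEAD1 peaks without TEAD4 lay near HA-YAP5SA. TEAD1 scores were divided into 7 ranges up to the limit, and within each the members were set beside TEAD1 peaks with neither TEAD4 nor HA-YAP5SA. The share with an HA-YAP5SA centre within 100 kb was higher for members in all 7 ranges, at 12.5 to 14.8% against 8.4 to 11.6%. The median distance to HA-YAP5SA was shorter for members in all 7, at 716 to 929.5 kb against 1087 to 1192 kb. The counting intervals of the 100 kb share overlapped in 3 of the 7 ranges (scores of 80 to 100, 300 to 400 and 400 to 500) and were apart in 4. In the first range the shares were 14.8% (9.49 to 21.5%) against 9.6% (8.88 to 10.4%), and in the last 14.7% (12.9 to 16.6%) against 8.4% (5.21 to 12.7%). Within 10 kb the members were higher in 6 of the 7 ranges, on 3 to 54 members a range, and the intervals overlapped in all 7. By chromosome, with Y left out, the 100 kb share was higher for members on 20 of 23 chromosomes and the median distance shorter on 19. These differences were not tested, since both classes came from the same libraries.

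**Figure D3:**
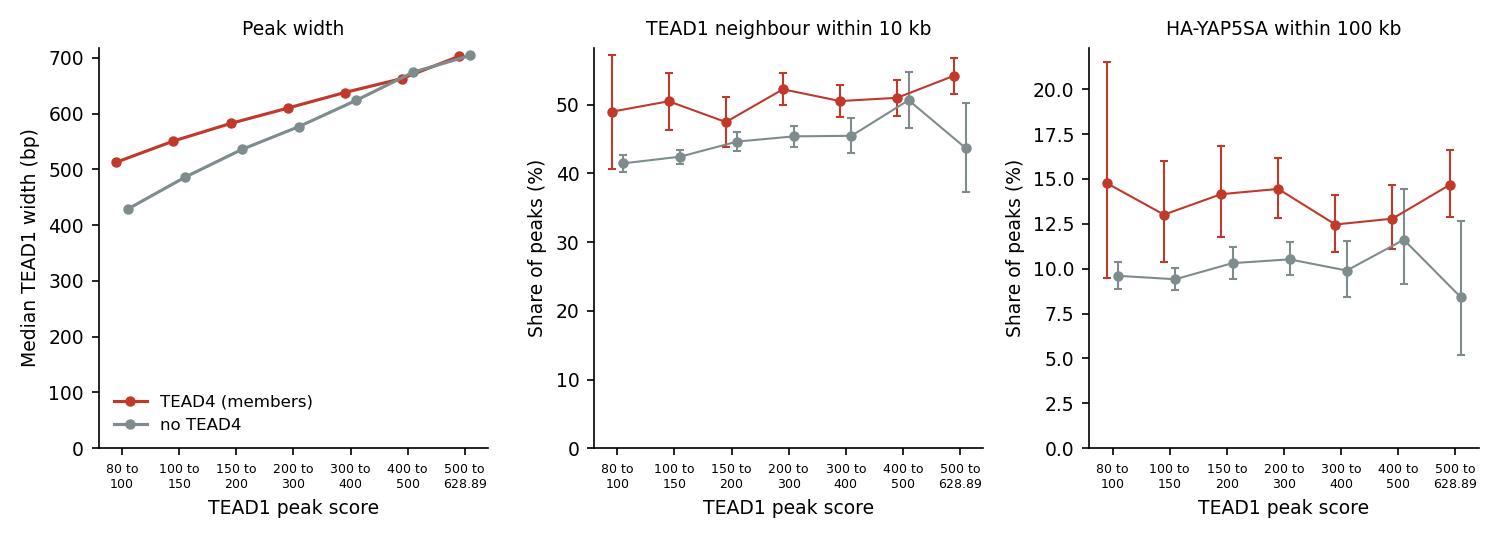
For 7 ranges of TEAD1 score, the panels give the median TEAD1 width (bp), the percentage of peaks with another TEAD1 centre within 10 kb, and the percentage with an HA-YAP5SA centre within 100 kb, for members (red) and for TEAD1 peaks with neither TEAD4 nor HA-YAP5SA (grey); bars are exact 95% binomial intervals. Members are higher in all 7 ranges in the neighbour and HA-YAP5SA panels, while the widths meet at scores of 500 to 628.89.

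Members also lay closer to other TEAD1 peaks. Another TEAD1 centre lay within 10 kb of 4036 members (51.4%, interval 50.2 to 52.5%), beside 46.3% of all TEAD1 peaks. The share was 54.3% (52.5 to 56.1%) at strong sites, 58.7% (55.1 to 62.2%) at sites with HA-YAP5SA and 43.5% (42.9 to 44.1%) at lower-scoring peaks with neither mark. In all 7 score ranges it was higher for members than for peaks without TEAD4, at 47.5 to 54.2% against 41.5 to 50.7%, and it was higher on 22 of 23 chromosomes. The intervals of both classes overlapped in 3 of the 7 ranges (scores of 80 to 100, 150 to 200 and 400 to 500) and were apart in 4. The shares were closest at scores of 400 to 500, with 51% (48.4 to 53.6%) for members and 50.7% (46.6 to 54.8%) for the others. The neighbour of a member was most often a lower-scoring TEAD1 peak without TEAD4, 2555 of 4036 (63.3%), a class that made up 69.1% of the TEAD1 list. It bore TEAD4 in 1468 (36.4%, interval 34.9 to 37.9%), beside 30.6% of the list. Among peaks with a neighbour within 10 kb, the nearest bore TEAD4 in 36.7% (34.4 to 39.1%) for strong sites, 44% (39.3 to 48.7%) for sites with HA-YAP5SA and 32.9% (32 to 33.8%) for lower-scoring peaks with neither mark.

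At low scores members were wider than peaks without TEAD4, and at high scores the medians met. The median member width was 632 bp (549 to 722 bp), against 552 bp over the TEAD1 list, 770 bp at strong sites and 507 bp at lower-scoring peaks with neither mark. At scores of 80 to 100 the medians were 513 bp for members and 429 bp for peaks without TEAD4, and at 500 to 628.89 they were 703 and 704.5 bp. A wider peak overlaps another more easily, and its part in the difference at low scores was not tested.

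When TEAD1 peaks with centres at most 10 kb apart were joined into chains, 3822 members (48.6%) stood alone and 1589 (20.2%) shared a chain with another member. Those not alone were the 51.4% with a TEAD1 neighbour within 10 kb, beside 46.3% of all TEAD1 peaks. Chains shared within a class were not counted for the other classes, so the 20.2% has no background. A chain that also held HA-YAP5SA contained 246 members (3.13%), against 2.12% of lower-scoring peaks without TEAD4. There were 108 chains with 3 or more members, of which 100 held no HA-YAP5SA and 69 held neither HA-YAP5SA nor a strong site. The 100 were 92.6% of these chains, near the 90.2% (2068 of 2293) of all chains of 3 or more TEAD1 peaks that held no HA-YAP5SA. The 69 have no such background. The chain with the most members was on chromosome 20 (chr20:33893325-33915524, 22.2 kb), where all 7 TEAD1 peaks carried TEAD4 and 6 were members. The member TEAD1 scores there were 512, 275, 111, 480, 152 and 350, and the strong site between the fifth and the sixth scored 873. The TEAD4 scores of the 6 members were 137, 128, 104, 139, 129 and 96.9, a narrower range than their TEAD1 scores, and the strong site had 350. The next chains were chr1:16465209-16485985, with 5 members and 2 TEAD1 peaks without TEAD4, and chr14:61991622-62061617, where 5 members stood among 18 TEAD1 peaks over 70 kb, 3 of them with HA-YAP5SA. On chromosomes 10 (chr10:47074132-47094096) and 17 (chr17:79011758-79024474), 4 of 4 TEAD1 peaks in a chain were members. These chains were chosen after the values had been seen.

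**Figure D4:**
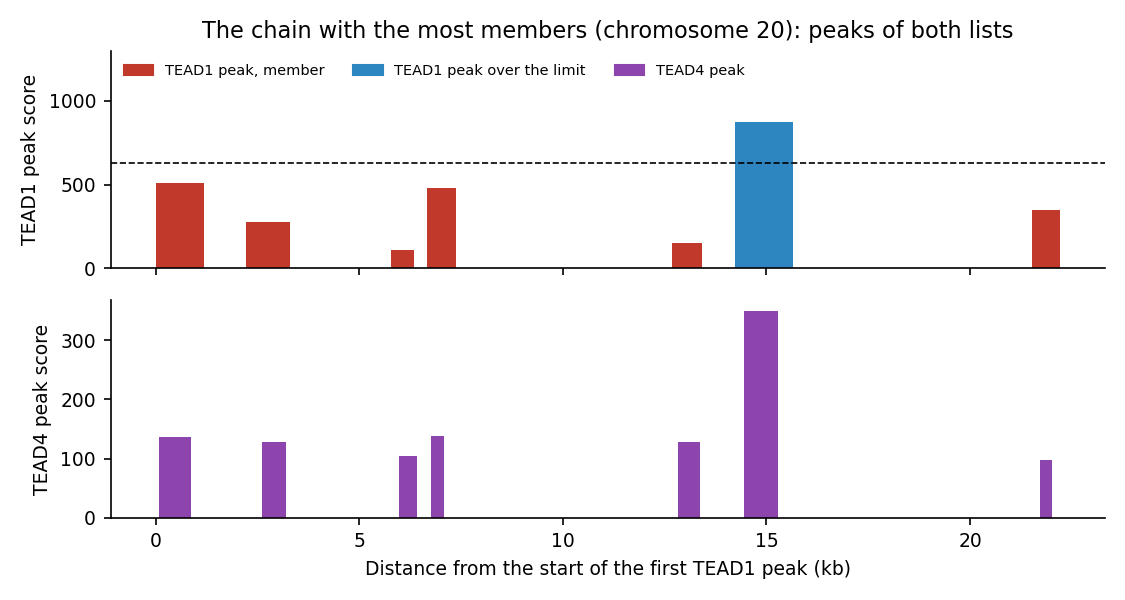
Peaks of TEAD1 (top) and TEAD4 (bottom) in the chromosome 20 chain of 22.2 kb, drawn to scale by distance in kb from the start of the first TEAD1 peak (x), with peak score as height (y); the dashed line is the score limit. The 6 member TEAD1 peaks (red) score 111 to 512 and the strong site (blue) 873, and each has a TEAD4 peak below it.

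The share of TEAD1 peaks that were members differed between chromosomes. It was highest on chromosome 17 (423 of 1467, 28.8%, interval 26.5 to 31.2%), chromosome 19 (201 of 735, 27.3%, 24.2 to 30.7%) and chromosome 20 (253 of 928, 27.3%, 24.4 to 30.3%). With Y left out, it was lowest on chromosome 18 (103 of 661, 15.6%, 12.9 to 18.6%), chromosome 13 (125 of 789, 15.8%, 13.4 to 18.6%) and chromosome 4 (383 of 2293, 16.7%, 15.2 to 18.3%). Chromosomes 17 and 19 are known as gene-rich and 13 and 18 as gene-poor. Gene density was not measured here, and its part in the differences between chromosomes was not tested. The whole interval lay above the 20.6% of the list on 7 of these 23 chromosomes and below it on 9. Chromosomes with a larger share of members tended to have more closely spaced TEAD1 peaks, with a rank correlation of 0.61 over 23 chromosomes between the member share and the share of all TEAD1 peaks with a neighbour within 10 kb. The member share had a rank correlation of 0.47 with the median TEAD1 score of all peaks on a chromosome and 0.46 with the share of strong sites. The part of these measures in the difference was not tested. Scores of members varied less, with chromosome medians of 308 to 374 for TEAD1 and 125 to 153 for TEAD4. On scaffolds outside the assembled chromosomes lay 11 members.

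**Figure D5:**
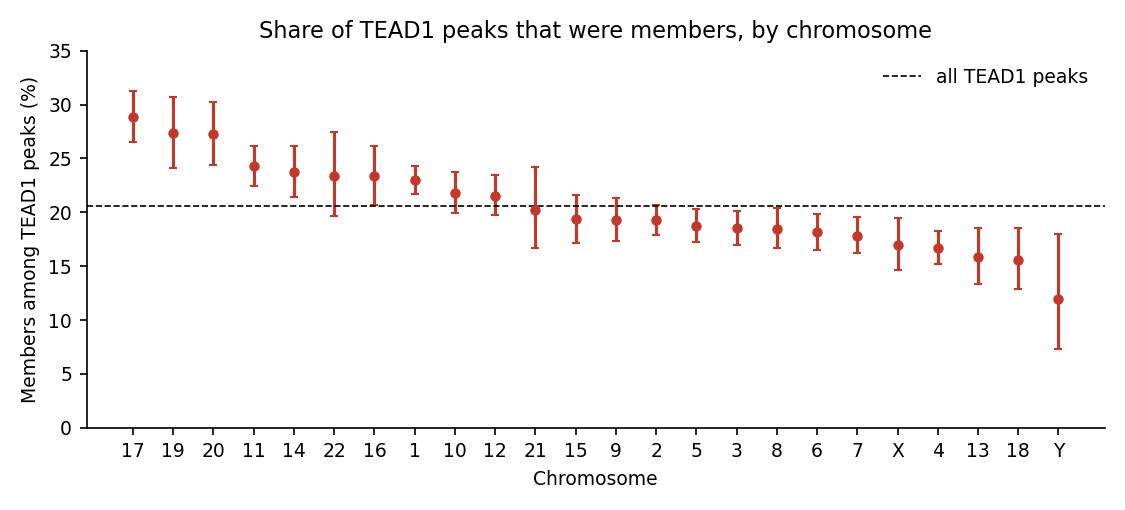
Points give the percentage of TEAD1 peaks on each chromosome (x) that were members (y), with exact 95% binomial intervals, and the dashed line marks the 20.6% of the whole list. Chromosomes 17, 19 and 20 lie at 27.3 to 28.8% and chromosomes 13 and 18 at 15.6 to 15.8%.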

How the data were processed

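The build hg19 and the aligner Bowtie2 are listed, with no version, per the submitters' processing notes. The deposited peak names start with MACS, a peak caller. The sources used here do not state its version, threshold or control library. Each list came from 1 library without pooling. The deposited score of a peak is the authors' own value on an unstated scale and was used only within its list. A list reflects depth, antibody and threshold together, so an absent peak may be one under the threshold. Starts of lists without column names were raised by 1, as for BED files, and the TEAD lists were read as they stand.

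Overlap meant 1 or more shared bases. Where a site had 2 TEAD4 peaks, the higher score was used. Distances are between centres unless called gaps. Clopper-Pearson gave the 95% intervals, and 0 peaks were taken to allow 3. Overlaps and distances were checked on simulated peaks. The members and lists were chosen with earlier results of these data known. Named sites are the 10 members with the highest TEAD4 score, 5 on each side of the limit, those with YAP or TAZ, 5 with the most TEAD4 peaks and 5 with the lowest TEAD1 score (2 of them printed). Gaps, chains and chromosomes were added with values seen. Genes, promoters, motifs and sequences need an hg19 reference and were not analysed here. Alternatives changed the overlap rule, the score limits, the HA-YAP5SA exclusion, chromosomes and distances. The tools were matplotlib 3.10.9, SciPy 1.17.1, pandas 2.3.3 and NumPy 2.4.6 under Python 3.11.15.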

Additional observations from a re-analysis of the deposited data

How the results depend on the processing

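The number of members, the shares with YAP and TAZ, the median width, the median TEAD4 score, the centre distance and the shares near TEAD1 and HA-YAP5SA were recomputed under 10 settings, and 3 more settings changed a distance for 1 result each. Of 82 values 63 stayed within their counting interval (the number of members within 1.5 times) and 19 moved. The 63 include the TAZ share under all 10 settings, which was 0 throughout because no TEAD1 peak shared a base with TAZ. With TEAD4 peaks at or above the TEAD4 median, 2619 members were left, with a median width of 666 bp, a TEAD4 score of 213, a centre distance of 40 bp, 55.3% with a TEAD1 neighbour and 3.02% with HA-YAP5SA within 10 kb. With TEAD1 scores below the list median, 1138 were left, with a width of 548.5 bp, a TEAD4 score of 101, a centre distance of 39.5 bp, 48.4% with a neighbour, 2.11% near HA-YAP5SA and 0.264% with YAP (3 members). Without a score limit the width was 664 bp and the TEAD4 score 159. These settings select other peaks by construction. The neighbour share was 34% at 5 kb, 73.8% at 25 kb and 50.1% without members within 10 kb of HA-YAP5SA. Chosen after seeing the data, leaving out peaks over 1500 bp took the YAP share to 0.0255%, giving each TEAD4 peak to a single TEAD1 peak left 7854 members, and TEAD starts counted from 0 left 7858. With centres within 500 bp the YAP count was 3. The promoter and motif alternatives were not run, and no HA-YAP5SA share exists once members within 10 kb are left out. No paired analysis was possible because each group has 1 library. Depth is unknown, which limits what a missing peak shows.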
